A study of Mus musculus with 16 samples.

Results

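Messenger RNA levels of 8 transcription factor genes that define the identity of absorptive intestinal cells were examined in mice that lacked Mfge8 or Cd36. The genes were Hnf4a, Hnf4g, Cdx1, Cdx2, Gata4, Gata6, Onecut2 and Smad4, chosen by symbol from tables of 24420 genes. All 8 were present in both tables, and all 8 passed the filter on low values, among 9432 genes tested in the enterocyte experiment and 9314 in the intestine experiment.

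HNF4A and its paralog HNF4G are nuclear receptors that bind the enhancers of absorptive enterocyte genes, and in mouse intestine each can largely stand in for the other. SMAD4, the shared partner of the receptor-regulated SMADs in BMP and TGF-beta signalling, acts with HNF4 at many of the same enhancers. The homeodomain factors CDX1 and CDX2 set intestinal rather than gastric identity. The zinc finger factors GATA4 and GATA6 and the cut-homeodomain factor ONECUT2 take part in the regional identity of the small intestine, where GATA4 and ONECUT2 are proximal and GATA4 is low in the ileum.

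The samples were 16 libraries of 3' tag RNA sequencing, which reads a short stretch at the polyadenylated end of each transcript, from mice of strain C57B6. The groups were isolated enterocytes of Mfge8 null mice (genotype Mfge8 KO, 5 libraries) and of WT mice (4 libraries), and small intestine of Cd36 null mice (genotype Cd36 KO, 3 libraries) and of WT mice (4 libraries). The labels give no age, diet, sex, treatment or construct for either null line, and leave unsaid whether each library is a different animal. A p-value here therefore sets the genotype difference against library-to-library spread alone, part of which may be technical. Levels are normalised read counts, for which the reads of each library were scaled by its size factor, separately in each experiment.

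Enterocyte libraries held 1618369 to 2459812 reads and intestine libraries 850297 to 1000694. In the intestine experiment, libraries of the same genotype differed by about sampling noise, so that chi-square over its degrees of freedom was 0.987 to 1.117 for 9 pairs of libraries, against 6.26 to 20.2 for 16 such pairs of the enterocyte experiment. The intestine libraries were therefore counted as 1 sample per genotype, and the effect of Cd36 loss has no replicate check. All 7 of them held reads of both the female-specific Xist (338 to 485 reads) and the Y-linked Ddx3y (38 to 52 reads), whereas the 9 enterocyte libraries held Ddx3y and no read of Xist. Although labelled as small intestine, the intestine libraries held few transcripts of stroma and muscle. The 11 markers of those cells summed to 14.9 to 19.9 normalised reads in Cd36 null and 22.1 to 36.4 in WT libraries, against 38402 to 38947 and 36949 to 37912 for 29 brush border genes. Myh11, the myosin heavy chain of smooth muscle, did not exceed 1.81 in any of the 7, and the endothelial cadherin Cdh5 was at 0 in all. In enterocyte libraries the same stromal and muscle markers summed to at most 6.86 in Mfge8 null and 9.36 in WT.

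The targeted genes were lower in the libraries labelled null. Mfge8 had 3.92, 2.19, 1.998, 7.50 and 1.64 normalised reads in Mfge8 null libraries 1 to 5, against 23.4, 11.4, 16.5 and 7.94 in WT libraries 1 to 4. All null libraries lay below all WT libraries, but null 4, with 7 reads, was close to WT 4, with 8. The means were 3.45 ± 2.43 in null and 14.8 ± 6.70 in WT (SD, n = 5 and 4), a log2 change of -1.87 (limma adjusted p = 0.0362) that passed in 11 of 22 other settings, and in 2 of the 9 that leave out 1 library. Cd36 was at 6.48 to 16.0 in Cd36 null intestine and 111 to 116 in WT intestine. The labels do not say which part of either gene was deleted, and a 3' tag reads only the end of the transcript.

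The enterocyte comparison addressed which of these regulators differ in level when Mfge8 is absent. Onecut2 fell in Mfge8 null enterocytes to 47.7% of its WT mean, and it was the only 1 of the 8 genes to pass, while 3 of the 8 had an unadjusted p under 0.05. The other 7 did not pass, with log2 changes between -0.36 (Hnf4g) and 0.51 (Smad4). Over all genes tested, 3.21% passed, 1.58% higher and 1.63% lower in null, at an adjusted p under 0.05 by limma. The median log2 change was -0.10 over the 8 genes and 0.0010 over all genes tested, where 1498 had an unadjusted p under 0.05. No gene of the 8 had null libraries all above or all below WT libraries, which 6.42% of tested genes had (3.35% with null above and 3.07% with null below). Bulk RNA cannot tell fewer cells of a type from less RNA per cell.

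**Figure D1:**
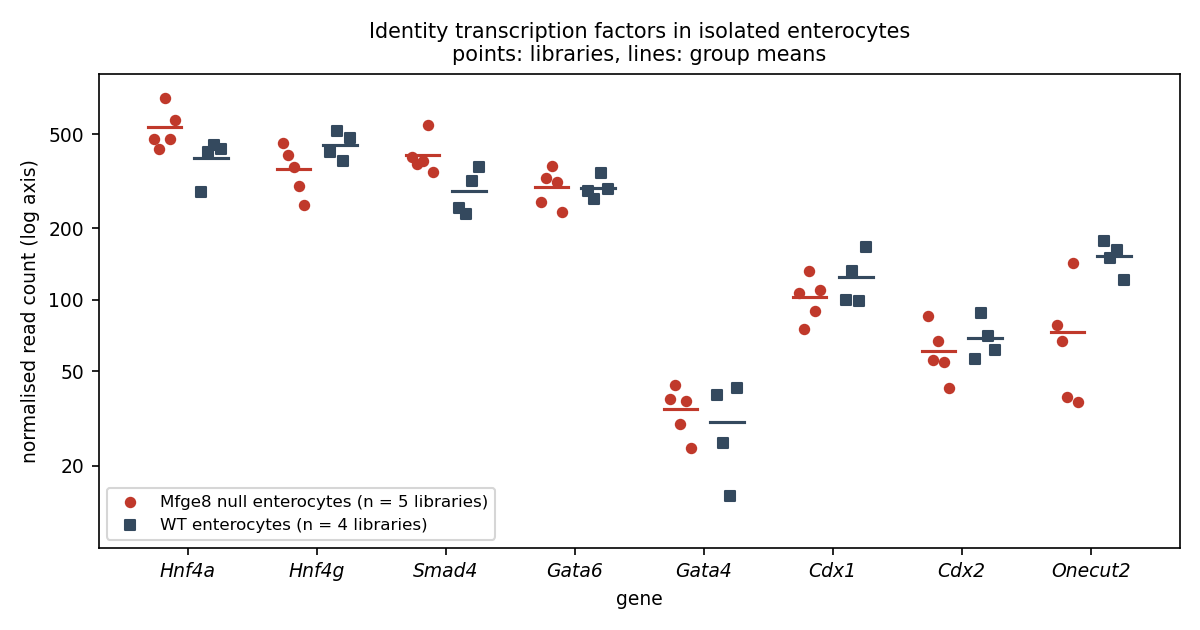
Normalised read counts of the 8 transcription factor genes (y axis, log scale) in isolated enterocytes; circles are the 5 Mfge8 null libraries, squares the 4 WT libraries and lines the group means. For Onecut2, 4 of 5 null libraries lie below the lowest WT library (121), and for Hnf4a and Smad4, 4 of 5 null libraries lie above the highest WT library.

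Onecut2 had 78.4, 66.9, 39.0, 143 and 36.9 normalised reads in Mfge8 null libraries 1 to 5, against 178, 151, 162 and 121 in WT libraries 1 to 4. Null 4, the null library with the most Mfge8 reads, lay within the WT range, and the other 4 null libraries lay below all WT libraries. The means were 72.9 ± 43.3 in null and 153 ± 23.9 in WT (SD, n = 5 and 4), a log2 change of -1.23 with a standard error of 0.31 and a 95% interval of -1.88 to -0.57 (limma adjusted p = 0.0401). The highest null library held 3.89 times the level of the lowest, against 1.47 times in WT. The coefficient of variation among null libraries was 59.4%, where counting error alone gives 11.8% and the median of all genes tested was 24.4%; among WT libraries it was 15.6%, with 7.99% from counting and a median of 23.2%.

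The call for Onecut2 stood in 11 of the 23 other settings tried, with adjusted p between 0.00329 and 0.198 over all of them. It was lost with edgeR on recovered reads (log2 change -1.09, adjusted p = 0.0602), with a score of intestinal region as a covariate (-0.75, adjusted p = 0.191 by limma) and without each of WT 1, WT 2, WT 3, null 1, null 3 and null 5 (-1.15, -1.23, -1.19, -1.30, -1.05 and -1.03).

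The regional score was the mean log2 level of 9 proximal genes minus that of 7 ileal genes, with the 8 transcription factors left out. It was 0.40, 1.29, -0.0013, 1.44 and -0.57 in null libraries 1 to 5, against 2.18, 1.40, 1.51 and 0.20 in WT libraries 1 to 4. Fabp6, 1 of the 7 ileal genes, ran from 34.3 in null 4 to 8959 in WT 4, with 6807 in null 5. The weight of this gene in the score was not examined. Null 5 and null 3 had the lowest scores of the 9 libraries and also the lowest Onecut2 levels, and WT 4 had both the lowest score and the lowest Onecut2 level among WT libraries. After subtracting genotype means, Pearson's r with the score over the 9 libraries was 0.787 for Onecut2, -0.832 for Cdx1 and -0.693 for Hnf4a. For the other genes it was 0.012 (Smad4) to 0.328 (Gata6). Null 4, with a score of 1.44, had 143 normalised reads of Onecut2, close to the 151 and 162 of WT 2 and WT 3 at scores of 1.40 and 1.51. Null 2, with a score of 1.29, had 66.9. Null 1, with a score of 0.40, had 78.4, against 121 in WT 4 at 0.20. The part of region in the Onecut2 difference was not tested. The score holds genes that differ between genotypes, such as Slc51b, which passed (limma adjusted p = 0.00615). A fit with the score as covariate therefore cannot separate region from genotype. Without null 3 and null 5 together, a setting chosen after seeing the data, the log2 change of Onecut2 was -0.73 (limma adjusted p = 0.198) and 116 genes passed in place of 303.

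**Figure D2:**
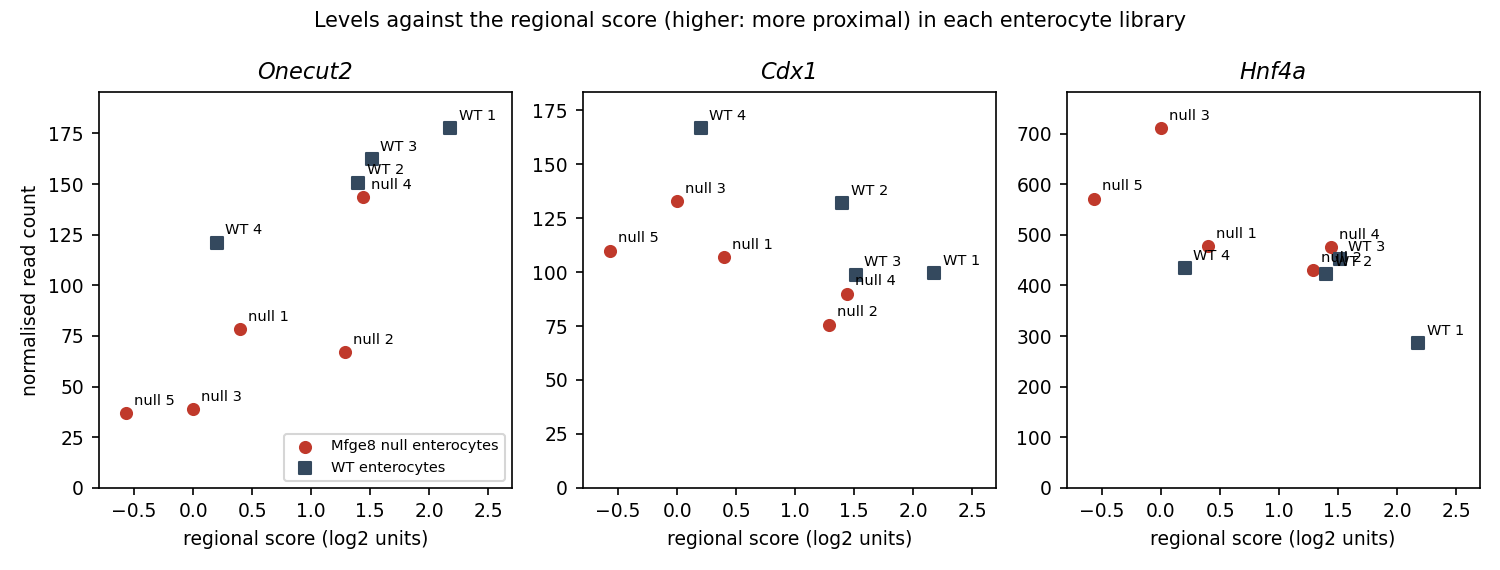
Normalised read counts (y axes, linear) of Onecut2, Cdx1 and Hnf4a against the regional score (x axes, log2 units, higher for more proximal marker expression) in each of 5 Mfge8 null (circles) and 4 WT (squares) enterocyte libraries. Onecut2 is lowest in null 3 and null 5, whose scores are the lowest, while the highest Hnf4a level is that of null 3 and the highest Cdx1 level that of WT 4.

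Of the nuclear receptors, Hnf4a lies on chromosome 2 (163506811 to 163572907, GRCm38, the assembly called mm10) and has 2 transcription start sites that a 3' tag cannot tell apart, since transcripts from both share their end. The 300 bases around each start, 250 before and 50 after, are shown because the upstream one holds a match for the binding letters of the ONECUT family, to which the called gene belongs. Both are on the plus strand, from RefSeq on GRCm38.p6, with matches in capitals.
Hnf4a upstream start, chr2:163506607-163506906: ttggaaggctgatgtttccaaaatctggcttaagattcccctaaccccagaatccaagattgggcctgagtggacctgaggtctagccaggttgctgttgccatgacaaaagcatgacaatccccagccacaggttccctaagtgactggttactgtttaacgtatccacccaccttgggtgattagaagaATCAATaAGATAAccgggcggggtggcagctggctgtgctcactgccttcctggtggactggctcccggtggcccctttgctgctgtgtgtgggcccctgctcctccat
Hnf4a downstream start, chr2:163546905-163547204: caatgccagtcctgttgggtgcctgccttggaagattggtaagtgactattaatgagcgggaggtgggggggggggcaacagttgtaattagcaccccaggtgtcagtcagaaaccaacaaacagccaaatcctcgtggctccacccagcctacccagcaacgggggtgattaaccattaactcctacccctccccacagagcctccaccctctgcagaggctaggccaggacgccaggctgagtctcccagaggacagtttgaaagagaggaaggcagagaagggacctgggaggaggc

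Both strands were searched for the letters of 5 factor families. Those of the ONECUT family were ATTGAT. For GATA factors the search used AGATAA, the core that these zinc fingers recognise. The homeodomain of CDX factors was represented by TTTATNG in the search. The HNF4 direct repeat was CAAAGTCCA, and the palindrome of HNF1 was searched as well. In the upstream window the ONECUT letters began at position -59 on the opposite strand and the GATA letters at -52 on the same strand, with 1 base between them and no overlap. Of 32851 start windows of the same length in the RefSeq table, 7.54% held the ONECUT letters, 11.2% the GATA letters, 10.9% the CDX letters, 0.475% the HNF4 letters and 0.00913% the HNF1 palindrome. Both the ONECUT and the GATA letters stood in 1.27% of the windows, and 3 windows had them 1 base apart, an arrangement searched for after it was seen here. The downstream window held no exact match of the 5, and neither did the start window of Cdx2, which is not shown. Near matches were not searched for, so sites that differ by a letter or more would be missed. These matches are letters in a window and were not tied to binding.

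Hnf4a had 477, 431, 711, 475 and 572 normalised reads in Mfge8 null libraries 1 to 5, against 285, 422, 452 and 434 in WT libraries 1 to 4. Of the 5 null libraries, 4 lay above the highest WT library and null 2 lay within the WT range. The means were 533 ± 112 in null and 398 ± 76.3 in WT (SD, n = 5 and 4), a log2 change of 0.42 (standard error 0.18, 95% interval 0.04 to 0.80) that did not pass over all genes tested (limma adjusted p = 0.251, unadjusted 0.0309). Over the alternative settings the change was 0.22 to 0.49. The antisense gene Hnf4aos, which overlaps the upstream part of Hnf4a and ends before its 3' end, was at 0.979 to 8.20 in null and 2.08 to 7.84 in WT libraries. The strand setting of the counting was not given in the sources used here.

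Hnf4g, on chromosome 3 (3508030 to 3659800), had 459, 409, 365, 301 and 250.2 normalised reads in null libraries 1 to 5, against 422, 515, 383 and 479.5 in WT libraries 1 to 4. Null 3, null 4 and null 5 lay below all WT libraries, and null 1 and null 2 lay within the WT range. The log2 change was -0.36 (standard error 0.18, 95% interval -0.73 to 0.02, limma adjusted p = 0.339) and did not pass. The transcripts of Hnf4a and Hnf4g shared no run of 31 bases, so reads of this length or longer that match exactly are not split between these paralogs, and the same held for Cdx1 with Cdx2 and for Gata4 with Gata6.

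The ratio of Hnf4a to Hnf4g reads, which does not depend on the size factor, was 1.04, 1.05, 1.95, 1.58 and 2.29 in Mfge8 null enterocytes, against 0.676, 0.820, 1.18 and 0.905 in WT enterocytes. All 5 null libraries held more Hnf4a than Hnf4g reads, as did WT 3 among WT libraries, whose ratio lay above those of null 1 and null 2. In intestine libraries Hnf4g was the more abundant of the paralogs in both genotypes, with ratios of 0.573 to 0.623 in Cd36 null and 0.548 to 0.597 in WT libraries. These ratios are given as a description with no test.

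**Figure D3:**
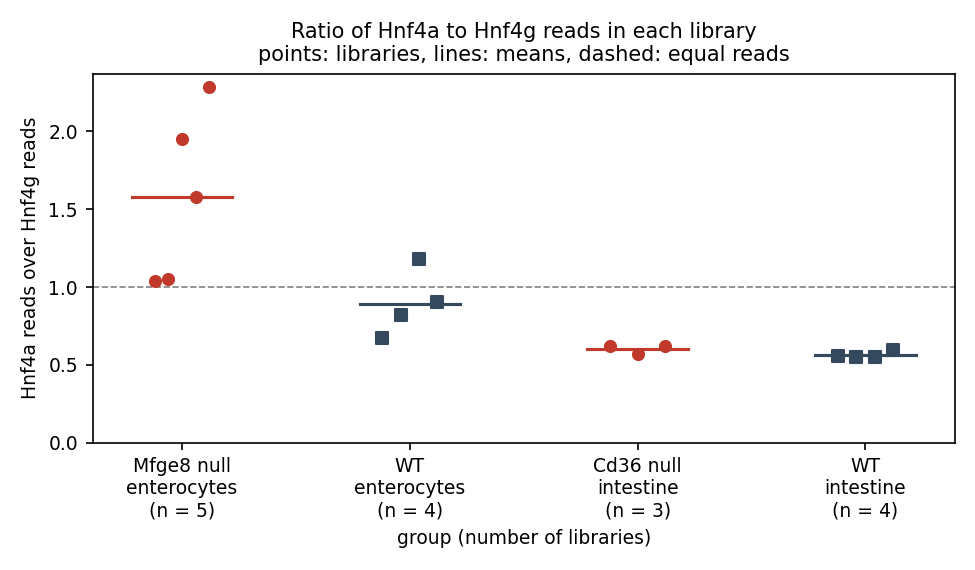
Ratio of Hnf4a reads to Hnf4g reads (y axis) in each library of the 4 groups (x axis); points are libraries, lines are means and the dashed line marks equal reads. Mfge8 null enterocytes range from 1.04 to 2.29, WT enterocytes from 0.676 to 1.18, and all intestine libraries lie at or below 0.623.

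Smad4, on chromosome 18 (73634790 to 73703791), had 402, 373, 385, 546 and 345 normalised reads in null libraries 1 to 5, against 244, 231, 317 and 363 in WT libraries 1 to 4. Null 5 lay within the WT range and the other 4 null libraries above it, with null 4 well above the rest. The means were 410 ± 78.8 in null and 289 ± 62.4 in WT (SD, n = 5 and 4), a log2 change of 0.51 (standard error 0.17, 95% interval 0.14 to 0.88) that did not pass over all genes tested (limma adjusted p = 0.135, unadjusted 0.00930). Its adjusted p was 0.0576 to 0.344 over the alternative settings, none of which passed.

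**Figure D4:**
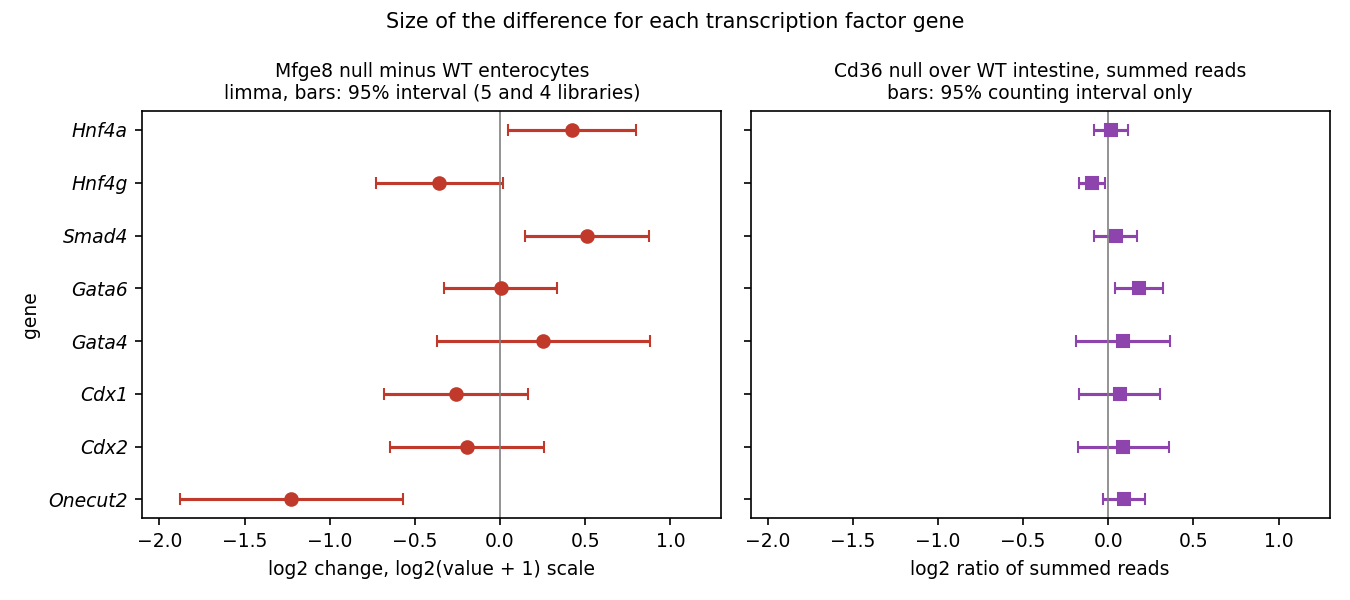
Left, log2 change of each gene in Mfge8 null minus WT enterocytes by limma with 95% intervals; right, log2 ratio of summed reads in Cd36 null over WT intestine with 95% intervals for counting error only. Onecut2 stands at -1.23 in the enterocyte comparison and at 0.09 in the intestine comparison, where all 8 genes lie between -0.09 and 0.18.

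Of the caudal homeodomain factors, Cdx1, on chromosome 18 (61018862 to 61036199), had 107, 75.6, 133, 89.9 and 109.9 normalised reads in null libraries 1 to 5, against 99.4, 132, 98.8 and 167 in WT libraries 1 to 4. Cdx2, on chromosome 5 (147300900 to 147307249), had 85.2, 55.9, 66.9, 54.6 and 42.6 in null libraries and 56.1, 88.4, 70.6 and 61.6 in WT libraries. The genotypes overlapped for both genes, and neither change passed (log2 -0.26 with an interval of -0.68 to 0.17 for Cdx1, and -0.19 with -0.65 to 0.26 for Cdx2; limma adjusted p = 0.578 and 0.726). The highest Cdx1 level of each genotype was in null 3 and WT 4, whose regional scores were among the lowest of their groups. Every enterocyte library held more Cdx1 than Cdx2 reads, with ratios of Cdx2 to Cdx1 of 0.388 to 0.798 in null and 0.369 to 0.714 in WT.

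Of the GATA factors, Gata6, on chromosome 18 (11052510 to 11085636), had 259.6, 327, 367, 315 and 234 normalised reads in null libraries 1 to 5, against 288, 265, 342 and 294 in WT libraries 1 to 4. Gata4, on chromosome 14 (63198914 to 63271712), had 38.2, 43.8, 29.97, 37.5 and 23.8 in null libraries and 39.7, 25.0, 14.9 and 42.7 in WT libraries. The genotypes overlapped for both. The log2 change of Gata6 was 0.0028 (95% interval -0.33 to 0.33, limma adjusted p = 0.996) and its sign differed between scalings (-0.02 with TMM). That of Gata4 was 0.25 (-0.37 to 0.88, adjusted p = 0.742) and turned to -0.04 without WT 3. Gata4 was the scarcest of the 8, with 29 to 40 reads in a null library and 19 to 43 in a WT library. Its reads were 0.0817 to 0.147 of those of Gata6 in null libraries and 0.0436 to 0.145 in WT libraries. Onecut2 also lies on chromosome 18 (64340032 to 64398488), which thus holds 4 of the 8 genes.

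Since 3' tags give about 1 read per transcript whatever its length, levels of different genes may be roughly ordered. Whether the counting caught the tags of each gene equally well was not checked. In Mfge8 null enterocytes the order by mean was Hnf4a (533), Smad4 (410.0), Hnf4g (357), Gata6 (300.3), Cdx1 (103), Onecut2 (72.9), Cdx2 (61.1) and Gata4 (34.7). In WT enterocytes it was Hnf4g (449.9), Hnf4a (398), Gata6 (297), Smad4 (289), Onecut2 (153), Cdx1 (124), Cdx2 (69.2) and Gata4 (30.6). Neighbours in the null order had overlapping ranges except Gata6 and Cdx1, and in WT the ranges were apart between Smad4 and Onecut2, Cdx1 and Cdx2, and Cdx2 and Gata4.

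The 7 genes other than Onecut2 had coefficients of variation of 17.8% to 26.2% among null enterocyte libraries, and of 10.9% (Gata6) to 42.6% (Gata4) in WT. All of these were above counting error, which ranged from 4.28% to 17.0% in null and 4.68% to 18.3% in WT.

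After subtracting genotype means, the genes that varied most like each of the 8 over the 9 enterocyte libraries were found by Pearson's r among all tested genes. Onecut2 was followed most closely by Atp6ap2, an accessory subunit of the vacuolar proton pump (r = 0.995, Spearman's rho 1), then by Med14, a subunit of Mediator (0.967, rho 0.817), and Vegfa, an endothelial growth factor (0.939, rho 0.967). For Hnf4a they were Gle1, Aff1 and Lcor (r = 0.951, 0.946 and 0.937), and for Hnf4g Parp9, Hnrnpd and Zbtb34 (0.982, 0.958 and 0.956). For Smad4 they were Tifa, the nuclear receptor gene Ppard and Taok1 (0.970, 0.960 and 0.957). Cdx1 was followed by Gnl2, Syt7 and Chd2 (0.966, 0.938 and 0.932), and Cdx2 by Zfpm1, a cofactor of GATA factors, Plaa and Adipor1 (0.956, 0.952 and 0.948). Gata4 was followed by Paip2, Rbm5 and Eprs (0.989, 0.958 and 0.946), and Gata6 by Nfkbib, Pafah1b1 and Vapa (0.982, 0.941 and 0.940). None of the 8 was among the 3 nearest genes of another. These are the highest values among all tested genes over 9 libraries, which also differ in depth and regional score, and they carry no p.

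Genes known to be regulated by HNF4 did not pass in Mfge8 null enterocytes by limma, which called 0 of 10 tested (2 with an unadjusted p under 0.05; edgeR called 0 and DESeq2 1), with a median log2 change of -0.02. Log2 changes of these genes ran from -0.93 to 0.16, below 0 for 6 and above 0 for 4. Apoa4 and Apoc3, the 2 with an unadjusted p under 0.05, were lower in null (-0.68 and -0.72, limma adjusted p = 0.190 and 0.105). Apoa1, the main protein of high-density lipoprotein, averaged 6581 ± 1667 in null and 6764 ± 1518 in WT (SD, n = 5 and 4, here and in the enterocyte values that follow). Fabp2, the intestinal fatty acid-binding protein, averaged 29169 ± 11522 in null and 25683 ± 4578 in WT. Of 10 genes regulated by CDX2, limma called 0 (1 with an unadjusted p under 0.05; edgeR and DESeq2 called 0), with a median of 0.19. Among them Muc2, the gel-forming mucin, averaged 3721 ± 1284 in null and 3274 ± 1268 in WT, and the lactase gene Lct 2656 ± 1362 in null and 4089 ± 1585 in WT.

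Of 29 brush border genes, 1 rose, 1 fell and 27 did not pass, with a median of 0.31 (10 had an unadjusted p under 0.05; edgeR called 1 and DESeq2 5). Log2 changes of the brush border genes were above 0 for 22 and below 0 for 7. The peptidase Dpp4 rose (2814 ± 532 in null and 1724 ± 412 in WT, limma adjusted p = 0.0465), and passed in 9 of the 23 other settings. The annexin Anxa13 fell (419 ± 82.5 in null and 779 ± 79.0 in WT, limma adjusted p = 0.00479), and passed in all 23.

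Of 9 tested proximal genes limma called 0 (2 with an unadjusted p under 0.05; edgeR called 1 and DESeq2 0), with a median of -0.35. Fabp1, a fatty acid-binding protein, averaged 15158 ± 5363 in null and 20753 ± 5565 in WT, and the apolipoprotein Apoa4 4386 ± 1316 in null and 7022 ± 2019 in WT. Cubn averaged 150.5 ± 77.0 in null and 395 ± 216 in WT, without overlap (limma adjusted p = 0.0549). Log2 changes of the proximal genes were below 0 for 7 and above 0 for 2. Of 7 tested ileal genes 1 rose, with a median of 0.57 (4 had an unadjusted p under 0.05; edgeR called 1 and DESeq2 2). It was Slc51b, a subunit of the basolateral bile acid exporter, at 466 ± 83.0 in null and 263 ± 10.01 in WT (limma adjusted p = 0.00615). Fabp6, which binds bile acids in ileal cells, ranged from 34.3 to 6807 in null and from 43.3 to 8959 in WT.

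In SMAD and BMP signalling limma called 0 of 20 tested genes (1 with an unadjusted p under 0.05; edgeR and DESeq2 called 0), with a median of 0.11. The BMP-induced inhibitors Id3 and Id1 averaged 1381 ± 127 and 916 ± 111 in null, against 1194 ± 221 and 705 ± 169 in WT. Of 29 tested other epithelial transcription factors 1 fell and 28 did not pass, with a median of 0.03 (6 had an unadjusted p under 0.05; edgeR called 1 and DESeq2 2). The gene that fell was Ppara, the fatty acid-sensing nuclear receptor, with 49.0 ± 14.3 in null and 95.3 ± 21.7 in WT (limma adjusted p = 0.0292), and passed in 13 of the 23 other settings. Klf4, a zinc finger factor of differentiated epithelium, was at 3184 ± 549 in null and 2201 ± 665 in WT (limma adjusted p = 0.183), without overlap. Of 8 tested factors of the secretory lineages and crypts limma called 0 (1 with an unadjusted p under 0.05; edgeR and DESeq2 called 0), with a median of -0.26. Of 13 genes of stem and proliferating cells, limma, edgeR and DESeq2 each called 0 (4 with an unadjusted p under 0.05 by limma). Their log2 changes were above 0 for 12 and below 0 for 1, with a median of 0.50.

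The summed level of B and plasma cell markers was higher in every Mfge8 null library than in any WT library, and most of it was Jchain. The 6 B and plasma cell markers summed to 206 to 501 normalised reads in null and 17.5 to 124 in WT, with Cd79a at 0 in all libraries. Of the 4 tested 1 rose, Jchain, the joining chain of secreted antibody (294 ± 126 in null and 58.5 ± 43.1 in WT, limma adjusted p = 0.00331). No other tested marker of the list passed, with Mzb1 at 17.6 in null and 5.00 in WT on average, Cd79b at 8.42 and 6.98, and Ms4a1 at 3.91 and 5.62. The 8 T cell markers summed to 3162 to 7391 in null and 1156 to 3398 in WT, which overlap, and most of the sum was Gzma (4112 in null and 2086 in WT on average). The log2 changes of all 8 were above 0, from 0.37 to 1.09 with a median of 0.96, and limma called 0 of 8 (6 with an unadjusted p under 0.05; edgeR called 0 and DESeq2 3). Enteroendocrine markers summed to 1421 to 2849 in null and 1850 to 3074 in WT. Of 9, 8 had a log2 change below 0, with a median of -0.52, and limma called 0 (4 with an unadjusted p under 0.05; edgeR and DESeq2 called 1 each). Goblet cell markers summed to 32736 to 104690 in null, highest in null 4, and 49175 to 81668 in WT. The part of these cells in the values of the 8 factors was not tested.

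The intestine comparison addressed the same genes when Cd36 is absent. None of the 8 differed by 1.5-fold between Cd36 null and WT intestine, and the ranges of the genotypes overlapped for all but Gata6. Over all genes tested, 5.78% differed by at least 1.5-fold without overlap of libraries (2.61% higher and 3.17% lower in null), and the libraries did not overlap, at any fold, for 16.5% (8.61% with null above and 7.91% with null below). The median log2 difference was 0.08 over the 8 genes and -0.0021 over all genes tested. With libraries taken as samples, limma called 0 of the 8 (lowest adjusted p = 0.139, and 1 gene with an unadjusted p under 0.05), and 699 genes in all.

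Gata6 had 237, 252 and 263 normalised reads in Cd36 null libraries 1 to 3, against 229, 219.9, 219 and 218 in WT libraries 1 to 4. All null libraries lay above all WT libraries, as for 8.61% of all genes tested. The ratio of summed reads was 1.13, or 0.18 on the log2 scale (95% interval for counting error only 0.04 to 0.32).

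Hnf4g had 740.1, 793 and 746 in null libraries, against 819, 874, 796 and 748 in WT libraries, a ratio of summed reads of 0.937 (0.888 to 0.988) with overlapping libraries. Hnf4a had 461, 455 and 463 in null libraries, against 456, 479, 437 and 446 in WT libraries, a ratio of 1.01 (0.943 to 1.08). The null libraries of Hnf4a lay within the WT range.

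Onecut2 had 312, 283 and 318 in Cd36 null libraries, against 282, 293, 297 and 274 in WT libraries, a ratio of 1.07 (0.977 to 1.16). Smad4 had 303, 268 and 290.5 in null libraries and 282, 267, 277 and 292 in WT libraries, a ratio of 1.03 (0.942 to 1.13). For both genes the libraries of the genotypes overlapped. Their counting intervals lay within 1.5-fold, as for the rest of the 8 genes. These intervals cover counting error only, so they cannot exclude a larger difference between genotypes. Whether the Onecut2 difference in enterocytes differs from that in intestine was not tested, since the intestine comparison rests on 1 sample per genotype.

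Gata4 had 56.1, 77.7 and 64.8 in null libraries, against 58.6, 77.4, 53.0 and 58.5 in WT libraries, a ratio of 1.06 (0.877 to 1.28). Cdx1 was at 84.2 to 89.5 in null and 75.9 to 89.8 in WT libraries (ratio 1.05, 0.889 to 1.24), and Cdx2 at 62.8 to 74.9 and 57.6 to 75.4 (ratio 1.06, 0.884 to 1.28). Coefficients of variation over the 8 genes ran from 0.919% (Hnf4a) to 16.5% (Gata4) in null, where counting error gives 4.57% and 12.1%, and from 2.24% (Gata6) to 17.3% (Gata4) in WT, where it gives 6.77% and 12.8%.

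**Figure D5:**
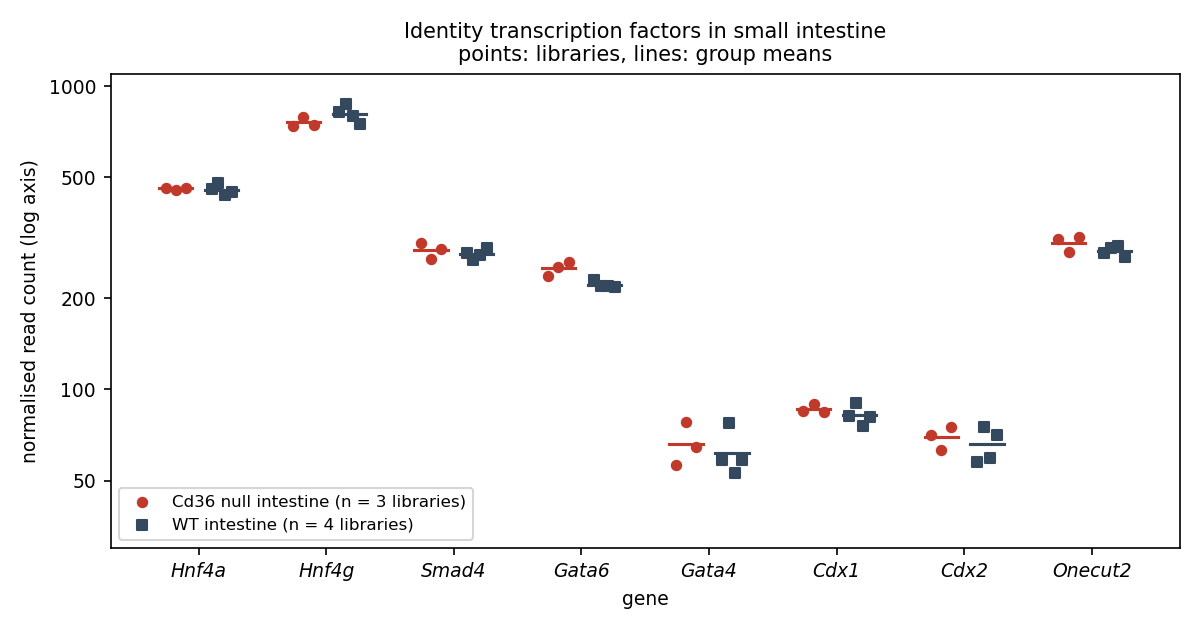
Normalised read counts of the 8 genes (y axis, log scale) in small intestine; circles are the 3 Cd36 null libraries, squares the 4 WT libraries and lines the group means. The genotypes overlap for all genes but Gata6, at 237 to 263 in null and 218 to 229 in WT libraries.

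The order of levels was the same in both intestine groups, from Hnf4g (759.7 in Cd36 null and 809 in WT) over Hnf4a (459.6 and 455), Onecut2 (305 and 287), Smad4 (287 and 279.9), Gata6 (251 and 221), Cdx1 (86.2 and 82.1) and Cdx2 (69.4 and 65.8) to Gata4 (66.2 and 61.9). Ranges overlapped between Onecut2 and Smad4 and between Cdx2 and Gata4. On the scale of CPM, in which each library has the same total, all 8 genes had higher means in WT intestine than in WT enterocytes. Onecut2 was at 82.6 ± 10.1 in WT enterocytes and 309 to 336 in WT intestine. Gata4 was at 16.7 ± 7.50 and 60.0 to 86.7, and Hnf4g at 245 ± 40.5 and 844 to 977. Hnf4a was at 216 ± 44.4 and 495 to 536, and Smad4 at 157 ± 38.2 and 299 to 330. Gata6 was at 161 ± 14.6 and 246 to 258, Cdx1 at 68.0 ± 20.9 and 85.9 to 101, and Cdx2 at 37.5 ± 7.93 and 65.0 to 84.3. Sample type, RNA kit and table differ together between those groups, so their parts cannot be told apart.

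Of 10 tested HNF4-regulated genes 1 was past 1.5-fold in Cd36 null intestine, the gluconeogenic enzyme gene Pck1 (444 to 477 normalised reads in null and 239 to 325 in WT). Of the other 9, 4 differed by less without overlap. Apoa1 (7853 to 8220 in null and 6305 to 6688 in WT) and Apoa4 (2451 to 2542 in null and 1996 to 2055 in WT) were higher. Fabp2 (7650 to 7940 in null and 9141 to 9519 in WT) and Mttp, the triglyceride transfer protein (1115 to 1125 in null and 1148 to 1251 in WT), were lower. Of 10 CDX2-regulated genes 1 was past the fold, Guca2a, the precursor of guanylin (435 to 502 in null and 283 to 321 in WT). Of 29 brush border genes and of 30 other epithelial factors, 0 were. Summed levels of brush border genes still did not overlap between genotypes (38402 to 38947 in null and 36949 to 37912 in WT). Nor did those of HNF4-regulated genes (22535 to 23017.5 and 21844 to 22453) or CDX2-regulated genes (11911 to 12189 and 11278 to 11736). Other epithelial factors (5853 to 5939 and 5689 to 5832) and proximal genes (8403.5 to 8741 and 7177 to 7524) were apart too. The 8 factors summed to 2266 to 2303 and 2189 to 2376, with overlap.

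Of 8 ileal genes Fabp6 was lower (62.9 to 77.7 in null and 263 to 284 in WT) and the hormone gene Fgf15 higher (20.8 to 27.7 in null and 5.16 to 10.3 in WT). Of 20 genes of SMAD and BMP signalling the receptor Tgfbr2 was lower (6.48 to 9.95 in null and 13.4 to 19.6 in WT). Of 7 secretory and crypt factors Sox9 was higher (137 to 147 in null and 84.5 to 99.5 in WT) and the zinc finger repressor Gfi1 lower (0.925 to 5.43 in null and 5.76 to 10.3 in WT). Markers of other cells differed between these preparations too. Tuft cell markers summed to 139.7 to 159 in null and 58.6 to 69.8 in WT, T cell markers to 603 to 623 in null and 704 to 923 in WT, and genes of stem and proliferating cells to 497 to 544 in null and 674 to 693 in WT. Goblet markers summed to 9006 to 9236 in null and 7580 to 7872 in WT, and enteroendocrine markers to 466 to 508 in null and 349 to 383 in WT, with all 7 and all 9 genes higher in mean log2 level. Paneth markers summed to 979.7 to 1032 in null and 1057 to 1170 in WT, and exocrine pancreas markers to 104 to 126 in null and 70.1 to 83.6 in WT. None of these sums overlapped between genotypes. The part of these cells in the values of the 8 factors was not tested.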

How the data were processed

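Total RNA was read at the polyadenylated end with QuantSeq FWD and a molecular identifier module, per the labels' protocols; whether reads were collapsed by identifier is not given in the sources used here. The submitters' processing notes name Trimmomatic 0.38.1, HISAT2 2.1.0, HTSeq 0.91, DESeq2 2.11.40 and the build mm10, with no order or settings. The values that the authors deposited are a signal per gene, namely read counts scaled by a factor for each library. Of the values, 100% were whole multiples of the library's step to within 1e-06, so reads could be recovered, except that for WT 4 and null 3 of the enterocytes, with factors near 1, the step is less firmly set.

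The enterocyte groups were compared with limma 3.58.1 (R 4.3.3) with a mean trend on log2(value + 1), over genes that reached 5 in 4 or more libraries, and p-values were adjusted by Benjamini-Hochberg and called under 0.05. Fold changes on that scale understate the change of low genes. edgeR 4.0.16 on recovered reads called 317 genes, and DESeq2 1.42.0 called 430. In intestine, a difference meant at least 1.5-fold without overlap of libraries, over genes at 5 or more in at least 3 libraries. Intervals there are exact at 95% and cover counting error only. The fit was also run on simulated counts that had the same dispersion for all genes and no regional differences. Such data do not test the calls given here.

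The 8 genes and the lists were chosen with earlier results of these data known. Genes named besides the 8 are the targeted genes, antisense neighbours, the genes of each list that passed (at most 4) or its most abundant, and the 3 most alike each of the 8. Some other listed genes are named too, among them genes without overlap of libraries. Promoter windows came from RefSeq for 2 of the 8 genes. Other settings were another pseudocount, filter, scaling, tool, variance model or covariate, and leaving out libraries.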

Additional observations from a re-analysis of the deposited data

Results flagged for a closer look

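Smad4 in Mfge8 null enterocyte library 4, at 546 normalised reads, stood apart from the other 4 null libraries, which held 345 to 402. Such a gap was looked for in 16 groups, the 8 genes in Mfge8 null and in WT enterocytes, and chance marks about 1 group in 20. Without null 4 the log2 change of Smad4 was 0.40 (limma adjusted p = 0.282). Null 4 also held the highest sum of goblet cell markers and the highest Onecut2 level among null libraries; their part was not tested.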

How the results depend on the processing

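Onecut2 was lower in Mfge8 null enterocytes under all 23 alternatives and passed in 11. The log2 change did not pass with edgeR (-1.09), edgeR on 7 libraries (-1.03), no mean trend (-1.23), the regional score as covariate (-0.75) or without null 3 and null 5 (-0.73), and in each 0 of the 8 genes were called. Leaving out 1 library gave -1.51 to -1.03, adjusted p of 0.00329 to 0.142 and 0 to 1 of the 8 called. The other 7 genes passed in none of the 23. The sign of Gata6 turned with TMM (-0.017), edgeR (-0.0023) and edgeR on 7 libraries (-0.083), and over single libraries Gata6 ranged from -0.074 to 0.088 and Gata4 from -0.039 to 0.45. Genes called numbered 303 (149 higher, 154 lower), against 147 (76 and 71) with no trend, 148 (85 and 63) with the regional score, 116 (51 and 65) without null 3 and null 5, and 430 (227 and 203) with DESeq2. Leaving out 1 library gave 135 to 387 (73 to 197 higher, 62 to 190 lower), namely 135 when WT 1 was left out, 169 for WT 2, 185 for null 3 and 200 for null 5. Replicate numbers did not pair the libraries (correlations of -0.12 to 0.21), and with the replicate number as a block 229 genes and 0 of the 8 were called, with Onecut2 at -1.03 (limma adjusted p = 0.0998). In intestine 538 genes were past the fold, against 354 with a pseudocount of 5 and 994 at the smaller fold tried, and all 8 genes moved by less than 1 SD. The settings with 7 libraries and without null 3 and null 5 were chosen after seeing the data. The cause of these shifts was not tested. Depth limits Gata4 most, at 19 to 43 reads per enterocyte library.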
